A study of Mus musculus with 4 samples.

Results

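The replication-dependent histone genes encode the H2A, H2B, H3 and H4 proteins around which DNA is wound and the H1 proteins that bind the DNA between these particles. They were taken here as every probe set whose mapped gene symbol was H1f1 to H1f5, or H2ac, H2bc, H3c or H4c followed by a number. This gave 53 of the 19572 named probe sets, each for a gene of its own. They comprised 13 H2A, 15 H2B, 10 H3, 11 H4 and 4 H1 genes. A further 10 RefSeq genes whose symbols match the rule (H1f4, H2ac7, H2ac14, H2ac18, H2ac19, H2ac23, H2bc6, H3c2, H3c4 and H4c17) were not analysed here.

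The samples were hearts of mice of the outbred ICR (Jcl:ICR) strain. At postnatal day 1 each pup had received, under anaesthesia, 5 µl of a viral vector preparation for Tbx6 or of phosphate-buffered saline (PBS). One protocol describes a subcutaneous dorsal injection, whereas the treatment labels speak of introduction into the heart. Hearts were collected 7 or 30 days after the injection. There was 1 array for each of PBS at day 7, Tbx6 at day 7, PBS at day 30 and Tbx6 at day 30. Tbx6 encodes a transcription factor that acts in early mesoderm. The control held no vector, so vector and gene cannot be told apart. Which promoter the vector carried, the sex of the pups and how many hearts made up a sample were not stated in the labels. The array is the mouse Clariom S, on which RNA was read as 1 value per probe set.

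Replication-dependent histone genes are transcribed mainly in S phase, when new DNA has to be packaged. Their mRNAs normally end in a stem-loop instead of a poly(A) tail, are bound there by the stem-loop binding protein and are broken down when replication ends. The genes lie in clusters and exist in many near-identical copies. In the mouse heart, muscle cells divide around birth and largely leave the cell cycle in the following weeks. Several members, H2bc4, H2bc21 and H1f2 among them, are also known to give polyadenylated transcripts in cells that no longer divide.

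All values below are on the log2 scale, so that a difference of 1 is a doubling. A reading at or below the highest of the 23 background probe sets of its array (5.77 to 6.05) is called at background. Where 2 readings of a day are given, PBS comes first and Tbx6 second. A bound is the day difference with readings at background raised to that limit, so that the change was at least that large. The median over all named probe sets was 5.29 to 5.34 on the 4 arrays. The defining markers of cardiomyocytes (7 of 7, Tnnt2 and Myh6 among them) were above background on every array. For Tbx6 itself the readings were 3.70 and 4.14 at day 7 and 3.57 and 3.66 at day 30, all at background. Whether its probes cover the vector's sequence is not stated, so they do not check the labels.

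Most replication-dependent histone genes were lower at day 30 than at day 7. Of the 53 members, 30 fell and 1 rose by limma's additive model of day and injection (Benjamini-Hochberg adjusted p under 0.05), against 5.40% of all named probe sets that fell and 6.16% that rose. Falls were called for 10 of 13 H2A, 9 of 15 H2B, 9 of 10 H3, 1 of 11 H4 and 1 of 4 H1 genes. The median difference, day 30 minus day 7, was -3.07 for H2A, -1.43 for H2B, -3.30 for H3, -0.76 for H4 and -0.76 for H1. With readings at background raised to the limit, these medians were -3.07, -1.15, -3.27, -0.76 and 0.0024. That of H1 as deposited rests on H1f3 and H1f5, which were at background throughout. Once raised, both genes take only the difference in background limits between days, so 0.0024 is no measured change. The median was -1.43 over all members and -0.03 over all named probe sets. Both readings of day 7 lay above both of day 30 for 44 members, which was so for 28.3% of all probe sets, and both readings of day 30 lay above for 2, against 25.1%. In RNA of a whole heart, fewer dividing cells and less histone mRNA per cell cannot be told apart.

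Of the 53 members, 30 were above background on all 4 arrays, 16 on some and 7 on none. Those 7 (H2ac21, H2bc1, H2bc3, H2bc8, H3c1, H1f3 and H1f5) have no measured difference. One of them, H2bc3, is counted among the 30 falls. With readings at background raised to the limit, the median over all members was -1.16, and over all named probe sets 0.15. The latter is no measured shift. It is the difference in background limits between days, which each of the 9952 probe sets at background throughout then takes.

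**Figure D1:**
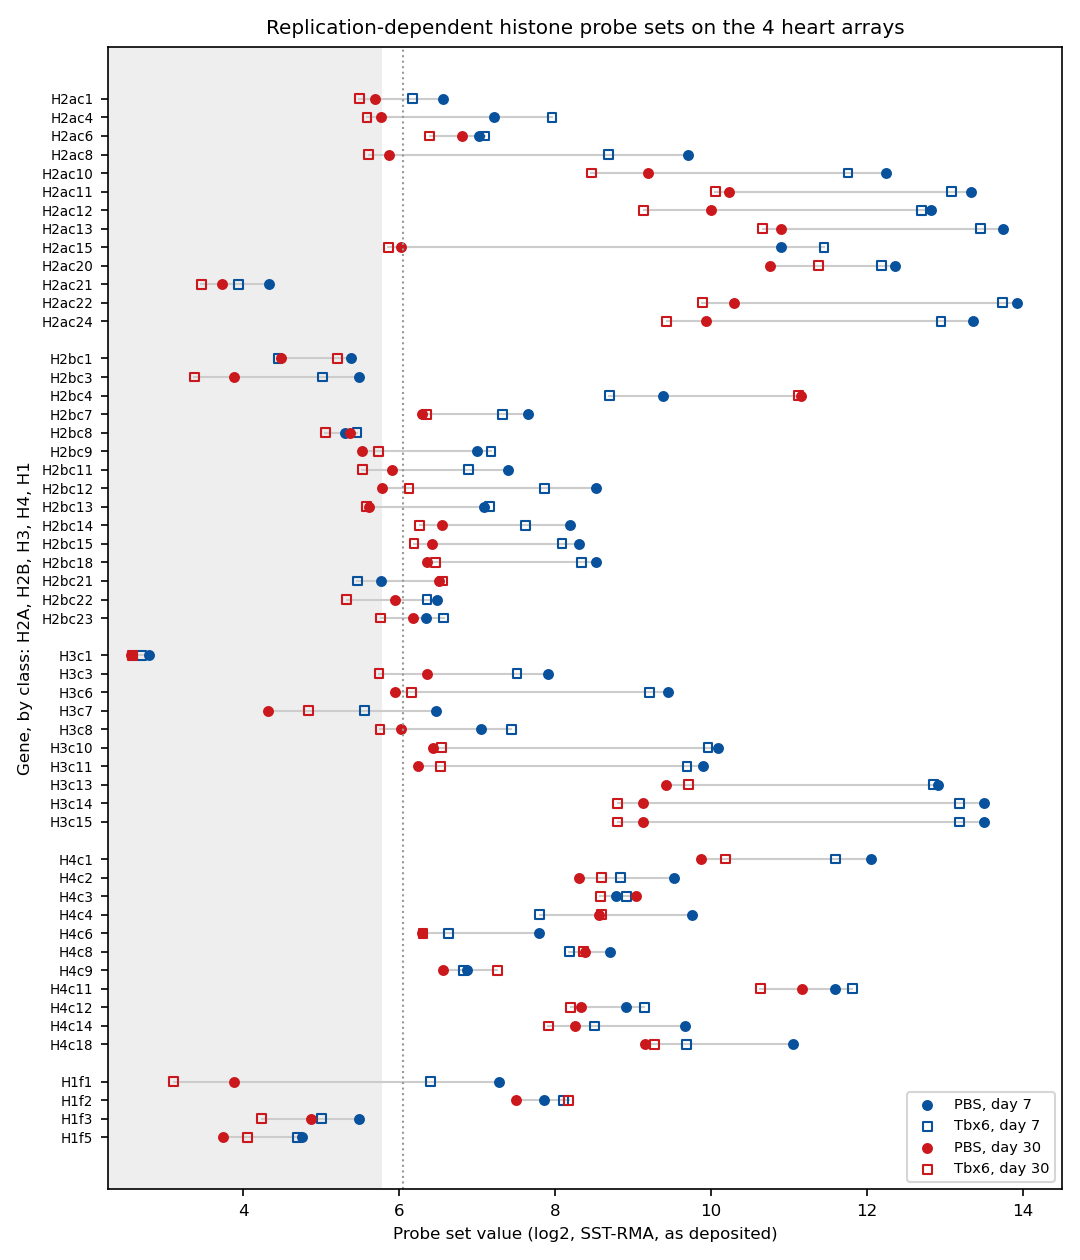
Value of each of the 53 probe sets (log2, horizontal axis) on the 4 arrays, grouped by class; blue is day 7, red is day 30, filled circles are PBS and open squares are Tbx6. Grey shading reaches up to the lowest, and the dotted line marks the highest, of the 4 background limits (5.77 and 6.05). Blue and red symbols stand far apart for most H2A and H3 genes and close together for most H4 genes, and H2bc4 has them in the opposite order.

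Upstream sequences are shown for 7 members that span this range, from the steepest fall (H2ac15) to genes that did not pass the test (H4c8 and H1f2). RefSeq promoter windows were available for 48 members. H2bc4, H2bc21, H3c1, H3c7 and H4c14 had no entry. Each line gives the 130 bases before the annotated start, 5′ to 3′ on the strand of the gene. Capitals mark matches, on either strand, to the CCAAT box, the TATA element TATAAA, the octamer ATTTGCAT known from H2B promoters, and AAACACA, an element known from H1 promoters. No one of these 4 motifs contains another.
H2ac15, GRCm38.p6, chr13:21753913-21754042, minus strand: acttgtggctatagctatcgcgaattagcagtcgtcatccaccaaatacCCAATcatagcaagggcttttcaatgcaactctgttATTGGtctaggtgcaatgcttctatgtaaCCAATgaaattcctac
H2bc12, GRCm38.p6, chr13:22035691-22035820, plus strand: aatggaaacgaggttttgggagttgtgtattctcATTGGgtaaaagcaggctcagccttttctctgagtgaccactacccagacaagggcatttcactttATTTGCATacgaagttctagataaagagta
H3c10, GRCm38.p6, chr13:21717498-21717627, plus strand: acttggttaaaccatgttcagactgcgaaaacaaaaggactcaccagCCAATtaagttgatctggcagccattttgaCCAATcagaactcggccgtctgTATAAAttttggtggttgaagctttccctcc
H4c1, GRCm38.p6, chr13:23761250-23761379, minus strand: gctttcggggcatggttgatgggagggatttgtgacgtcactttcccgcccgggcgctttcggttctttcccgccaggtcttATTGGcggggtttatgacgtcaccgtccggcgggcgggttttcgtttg
H4c8, GRCm38.p6, chr13:23530914-23531043, plus strand: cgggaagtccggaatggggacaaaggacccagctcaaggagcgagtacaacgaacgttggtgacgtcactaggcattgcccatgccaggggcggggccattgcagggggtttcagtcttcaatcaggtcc
H1f1, GRCm38.p6, chr13:23763538-23763667, plus strand: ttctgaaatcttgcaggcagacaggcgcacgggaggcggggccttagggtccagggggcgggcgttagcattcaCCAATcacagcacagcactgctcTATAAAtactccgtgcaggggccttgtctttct
H1f2, GRCm38.p6, chr13:23738677-23738806, plus strand: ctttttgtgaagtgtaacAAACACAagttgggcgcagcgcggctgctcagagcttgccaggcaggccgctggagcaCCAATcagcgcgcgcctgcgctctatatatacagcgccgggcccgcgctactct

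Over the 250 bases before the start, CCAAT was found in 13 of 13 H2A, 13 of 13 H2B, 6 of 8 H3, 4 of 4 H1 and 3 of 10 H4 promoters. Over all 27025 genes of the promoter table the share was 34.5%. The H3 windows without CCAAT were those of H3c14 and H3c15, whose shared measurement fell by 4.38.  Within H4 the genes with CCAAT were H4c1, H4c3 and H4c4, of which H4c1 fell while H4c3 and H4c4 did not pass the test. The octamer was in 6 of 13 H2B and 6 of 13 H2A windows, in 0 of the H3, H4 and H1 windows, and in 1.61% of all genes. Many H2A and H2B genes stand head to head, so that their windows overlap and share most matches. Some matches lie outside the overlap. The TATAAA of H2bc15 and H2bc12 was on the opposite strand, 190 and 198 bases before the start. It lay beyond the windows of their partners H2ac15 and H2ac12, so its absence there reflects where those windows end. AAACACA was in 3 of 4 H1 windows, against 6.22% of all genes, and H1f1 was the one without it. TATAAA was in 24 of the 48 windows, against 13.0% of all genes. A match of letters is a description of the sequence only.

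H2A, the partner of H2B in the nucleosome, held the steepest fall. H2ac15 read 10.90 and 11.45 at day 7, and 6.02 (at background) and 5.86 at day 30. It fell by 5.23 (SE 0.28, adjusted p = 3.5e-05), with a bound of -5.22. Its 2 arrays of day 7 were both high, and its readings at day 30 were at the edge of background. H2ac22 read 13.93 and 13.74 at day 7 and 10.29 and 9.89 at day 30, and fell by 3.74 (SE 0.25). H2ac24 read 13.36 and 12.95 at day 7 and 9.94 and 9.43 at day 30, and fell by 3.47 (SE 0.25). Unlike H2ac15, these genes stayed well above background at day 30. Among the other H2A genes with high readings, H2ac13 (13.75 and 13.46, then 10.89 and 10.66) fell by 2.83 and H2ac11 (13.34 and 13.08, then 10.23 and 10.05) fell by 3.07. H2ac10 fell by 3.17, H2ac12 fell by 3.19 and H2ac8 fell with a bound of -3.26.

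The remaining H2A genes moved less. H2ac20 read 12.35 and 12.19 at day 7 and 10.75 and 11.38 at day 30, and fell by 1.21 (SE 0.28, adjusted p = 0.0271). H2ac4 fell with a bound of -1.65. H2ac1, whose protein is best known from the testis, differed by -0.77 (adjusted p = 0.0869) and H2ac6 by -0.46 (adjusted p = 0.324), and neither passed the test. In every one of the 13 H2A genes both arrays of day 7 read higher than both of day 30. With day as the only term, H2ac20 lost its call without PBS at day 7 (adjusted p = 0.103), Tbx6 at day 7 (0.0694) or PBS at day 30 (0.149), and H2ac4 without Tbx6 at day 30 (0.0547).

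H2B was the class in which members went in opposite directions. H2bc4 read 9.38 and 8.69 at day 7, and 11.16 and 11.12 at day 30. It rose by 2.10 (SE 0.27, adjusted p = 0.00178), and it was the only member that rose. Both of its arrays of day 30 were high and close to each other, with no overlap between days. H2bc21, picked out after its values were seen, read 5.77 and 5.46 (both at background) at day 7 and 6.51 and 6.55 at day 30. Its difference was at least 0.75 and narrowly missed the threshold (0.91 as deposited, SE 0.26, adjusted p = 0.0526). Its adjusted p was 0.0438 after quantile normalisation, 0.0427 after median centring, 0.0277 with a filter on mean level, 0.0311 with a filter on background and 0.0427 without the injection term. It stayed above the threshold with 1 probe set per gene (0.0533) and with a trended, robust prior (0.0612). These 2 were also the only members whose readings at day 30 both exceeded those of day 7.

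The other H2B genes that passed the test fell. H2bc12 read 8.53 and 7.86 at day 7 and 5.77 (at background) and 6.12 at day 30, and fell by 2.25 (SE 0.30), with a bound of -2.11. H2bc18 read 8.53 and 8.34 at day 7 and 6.35 and 6.46 at day 30, and fell by 2.03 (SE 0.25, adjusted p = 0.00148). H2bc15 read 8.31 and 8.09 at day 7 and 6.42 and 6.19 at day 30, and fell by 1.90 (SE 0.25). These falls were smaller than those of most H2A genes, in a class whose readings at day 7 stood nearer to background. H2bc14 (8.19 and 7.61, then 6.54 and 6.26) and H2bc7 (7.65 and 7.33, then 6.30 and 6.35) fell too. H2bc9, H2bc11 and H2bc13 reached background on each array of day 30 and fell, the bounds of H2bc9 and H2bc13 being -1.15 and -1.19. H2bc22 (bound -0.48, -0.78 as deposited, adjusted p = 0.0985) and H2bc23 (bound -0.46, -0.49 as deposited, adjusted p = 0.313) did not pass the test. H2bc1, whose protein is best known from the testis, and H2bc8 were at background throughout.

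Several H2B calls rested on all 4 arrays being present. With day as the only term, H2bc7 lost its call without PBS at day 7 (adjusted p = 0.0842), PBS at day 30 (0.0972) or Tbx6 at day 30 (0.0936). H2bc14 lost it without PBS at day 7 (0.0548), PBS at day 30 (just above 0.05) or Tbx6 at day 30 (0.0906), and H2bc11 without PBS at day 7 (0.0672) or Tbx6 at day 30 (0.104). H2bc9 lost it without PBS at day 30 (0.0548) and H2bc3 without Tbx6 at day 30 (0.0773). H2bc4, H2bc12, H2bc13, H2bc15 and H2bc18 were called with any one array left out.

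H3, which carries most of the well-known histone tail modifications, fell in nearly the whole class. H3c14 and H3c15 had identical readings on every array, 13.50 and 13.19 at day 7 and 9.12 and 8.80 at day 30. They are therefore 1 measurement of both genes, and it fell by 4.38 (SE 0.25, adjusted p = 4.2e-05). H3c13, their neighbour, read 12.91 and 12.85 at day 7 and 9.41 and 9.70 at day 30, and fell by 3.32 (SE 0.26). H3c10 read 10.09 and 9.96 at day 7 and 6.43 and 6.54 at day 30, and fell by 3.54 (SE 0.25). H3c11 fell by 3.41 and H3c6 fell with a bound of -3.22. In each of these genes the difference between days exceeded that between injections.

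H3c3 fell with a bound of -1.63, and H3c8 (7.04 and 7.44 at day 7, then at background) with a bound of -1.31. H3c7 passed the test (adjusted p = 0.0308), but it was above background only after PBS at day 7, at 6.47, and its bound was -0.19. H3c1 read 2.56 to 2.79, at background on every array, and was the one H3 gene that was not called. With day as the only term, H3c3 lost its call without Tbx6 at day 30 (adjusted p = 0.0736). H3c7 lost it without PBS at day 7 (0.130), PBS at day 30 (0.178) or Tbx6 at day 30 (0.0850), and H3c8 without Tbx6 at day 7 (0.0616), PBS at day 30 (0.0515) or Tbx6 at day 30 (0.0943).

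H4 is the partner of H3 in the nucleosome. All 11 H4 genes were above background on all 4 arrays, and 1 of them passed the test. H4c1 read 12.05 and 11.59 at day 7, and 9.86 and 10.19 at day 30. It fell by 1.79 (SE 0.28, adjusted p = 0.00456). H4c11 read 11.59 and 11.81 at day 7 and 11.16 and 10.63 at day 30, a difference of -0.80 (SE 0.28, adjusted p = 0.108). H4c18 read 11.05 and 9.69 at day 7 and 9.15 and 9.27 at day 30, a difference of -1.16 (SE 0.35, adjusted p = 0.0728). H4c14 read 9.67 and 8.50 at day 7 and 8.25 and 7.91 at day 30 (SE of the difference 0.29, adjusted p = 0.0555). For H4c18 and H4c14 the spread between injections at day 7 was larger than the difference between days.

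The smallest H4 differences were those of H4c3, which read 8.78 and 8.91 at day 7 and 9.04 and 8.58 at day 30, and of H4c9, which read 6.87 and 6.83 and then 6.56 and 7.26. Their differences were -0.03 (SE 0.27) and 0.06 (SE 0.28), and their days overlapped. H4c4 and H4c8 overlapped as well. H4c18 passed the test with a filter on mean level (adjusted p = 0.0413), with a filter on background (0.0470) and with a trended, robust prior (0.0378). H4c14 did so under the same settings (0.0301, 0.0343 and 0.0387) and after quantile normalisation (0.0495). Without Tbx6 at day 7, H4c18, H4c14 and H4c6 were called too (0.0100, 0.0222 and 0.0217). Whether H4 changed less than the other classes was not tested, since genes of a class are not replicates and their probes may share targets.

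H1 proteins, the linker histones, differ more in sequence than the copies of a core histone. H1f1 read 7.28 and 6.40 at day 7 and 3.88 and 3.10, at background, at day 30. It fell (adjusted p = 0.000155 on the deposited values) with a bound of -0.91. H1f2 read 7.85 and 8.10 at day 7 and 7.49 and 8.17 at day 30, a difference of -0.14 (SE 0.26, adjusted p = 0.801). Its readings overlapped between days. H1f3 (4.23 to 5.48) and H1f5 (3.74 to 4.75) were at background on every array.

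**Figure D2:**
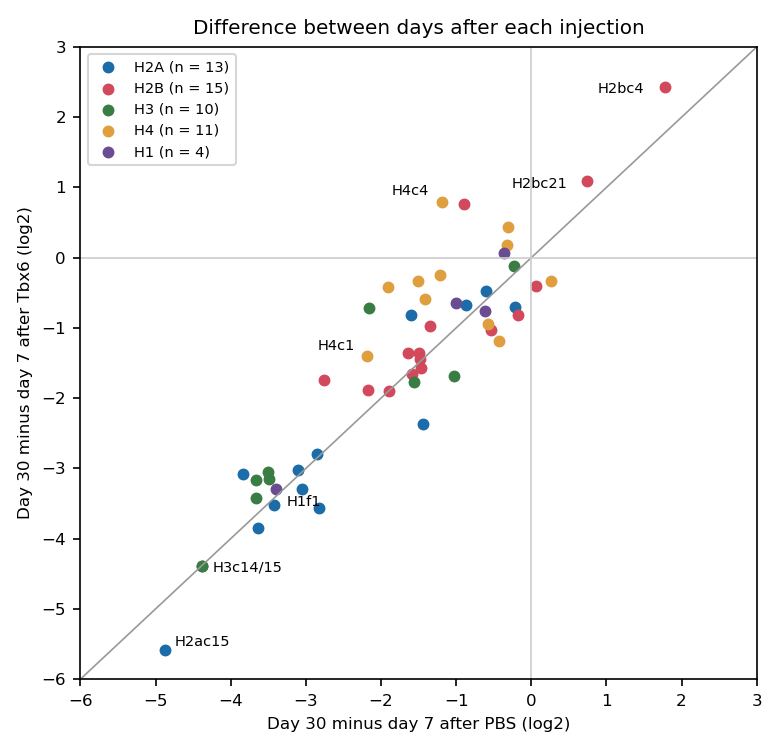
Day 30 minus day 7 (log2) for each member after PBS (horizontal axis) and after Tbx6 (vertical axis), coloured by class, with the line of equality. The points follow the line from H2ac15 at the lower left to H2bc4 at the upper right; H4 genes lie mostly above it.

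The day difference was seen separately after each injection, in pairs of arrays that share none. After PBS, 40 members read at least 1.5-fold lower at day 30 and 2 higher, against 16.3% and 15.2% of all probe sets. After Tbx6, 39 read lower and 4 higher, against 17.3% and 16.5%. These counts include members with readings at background. Among the 32 members with both readings above background after PBS, 23 read lower and 1 higher. Among the 33 such members after Tbx6, 24 read lower and 2 higher. Over all probe sets, 1649 read lower and 1802 higher among 8074 after PBS, and 1695 and 1886 among 8318 after Tbx6. Across the 53 members the differences after PBS and after Tbx6 correlated at 0.912 (Pearson) and 0.850 (Spearman), and across all named probe sets at 0.671 and 0.509. The members share probes and arrays, so these correlations are descriptions. The class medians after PBS and Tbx6 were -2.86 and -3.03 for H2A, -1.47 and -1.35 for H2B, -3.50 and -3.10 for H3, -1.19 and -0.33 for H4, and -0.81 and -0.71 for H1, and whether they differ was not tested. Those of H1 rest on H1f3 and H1f5, which were at background on every array, and are no measured change.

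Tbx6 against PBS gave no tested change. By the additive model 0 of the 53 members and 0% of all named probe sets passed for injection (limma, adjusted p under 0.05). At an unadjusted p under 0.05 there were 5 members, H2ac8, H2ac10, H4c4, H4c14 and H1f1, and 877 of all probe sets. The lowest was that of H1f1 (unadjusted p = 0.00953, adjusted p = 1), with a difference of -0.82 and lower readings after Tbx6 on both days, those of day 30 at background. Under the alternatives the number at an unadjusted p under 0.05 was 0 to 6, and no member passed after adjustment.

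Between the single arrays of day 7, 11 members read at least 1.5-fold lower after Tbx6 and 1 read higher, against 7.87% and 8.05% of all probe sets. These 11 were 5 H4 genes, 3 H2B genes and 1 each of H2A, H3 and H1. H4c4 read 9.75 after PBS and 7.80 after Tbx6, a difference of -1.95. H4c18 differed by -1.37, H4c14 by -1.17, H4c6 by -1.16 and H4c2 by -0.68. H4c4 was the widest of all members, and its reading after Tbx6 was below both readings of day 30. In the other classes H2ac8 differed by -1.03, H1f1 by -0.87, H2bc4 by -0.69, H2bc12 by -0.66 and H3c7 by at least -0.70, while H2bc1 was at background on both arrays. H2ac4, at 7.21 and 7.96, was the member that read higher. The median over all members was -0.29, with 41 of 53 below zero, and over all probe sets -0.0006.

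Between the arrays of day 30, 6 members read at least 1.5-fold lower after Tbx6 and 4 higher, against 6.98% and 7.99%. With readings at background raised to the limit there were 2 lower and 3 higher. The lower ones were H2ac12 (-0.87) and H2ac10 (-0.73), and the higher ones H4c9 (0.70), H1f2 (0.68) and H2ac20 (0.63). The median over all members was -0.17. For the 5 H4 genes that read lower at day 7 the differences at day 30 were 0.04 (H4c4), 0.13 (H4c18), -0.34 (H4c14), 0.01 (H4c6) and 0.29 (H4c2). No member above background on both days was 1.5-fold apart in the same direction on both. Whether the difference between injections itself differs between days cannot be tested with 1 array a group.

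**Figure D3:**
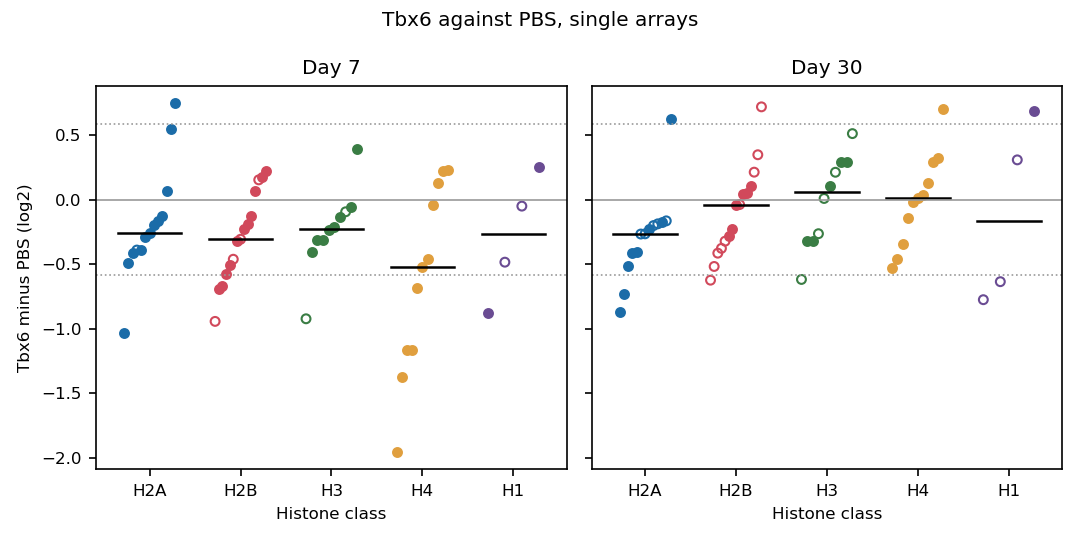
Tbx6 minus PBS (log2) for each member at day 7 and day 30, by class; filled points have both readings above background, open points do not, bars are class medians and dotted lines mark 1.5-fold. At day 7, 5 H4 genes lie below the lower line, down to -1.95, and at day 30 none of the H4 genes does.

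Genes listed as replication-independent histones and genes for the proteins that handle histone mRNA were read for comparison. Whether each listed histone is made outside S phase was not tested. Of 17 measured genes of replication-independent histones 5 fell, 0 rose and 8 were at background throughout. H2ax, the variant phosphorylated at DNA breaks, read 9.48 and 9.14 at day 7 and 7.10 and 6.74 at day 30, and fell by 2.39 (SE 0.25). H3f3b and H3f3a, which encode H3.3, had day differences of -2.11 and -1.38, H2az1, a variant found at promoters, of -1.98, and the centromeric Cenpa of -1.08, all past the test. H2az2 (0.14, adjusted p = 0.794), Macroh2a1 (-0.54, adjusted p = 0.229) and H2aj (-0.31, adjusted p = 0.562) did not pass the test. With day as the only term, H2ax and H2az1 were called with any one array left out, while the count for the list was 4 without PBS at day 7, 4 without Tbx6 at day 7, 4 without PBS at day 30 and 2 without Tbx6 at day 30.

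Of 18 measured genes for histone mRNA transcription and processing, 2 fell and 3 rose. Npat, the activator of histone transcription in S phase, read 10.17 and 10.12 at day 7 and 9.10 and 8.82 at day 30, and fell by 1.19 (SE 0.25, adjusted p = 0.0182). Cdk2, the kinase that activates Npat, fell by 1.12. Sympk and Cpsf3, of the cleavage complex that trims histone and other pre-mRNAs, rose by 1.16 and 1.05, and Lsm10, of the U7 particle that guides the cleavage, rose by at least 0.96. Slbp, which encodes the stem-loop binding protein, read 7.71 and 7.36 at day 7 and 7.58 and 7.15 at day 30, a difference of -0.17 (adjusted p = 0.739). With day as the only term, the list had 0 calls without any one array except PBS at day 7, where Lsm10 stayed.

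Chaperones and assembly factors, which carry histones to DNA, had 2 falls among 22 measured genes, Rbbp4 (-1.29) and Asf1b (-1.03). Their count was 5 with a filter on mean level or on background, and 0 without Tbx6 at day 30 and 1 without any other array. Of 25 S-phase genes 17 fell and 0 rose, but 8 of the 25 were at background throughout, among them 3 of the 17 (Cdt1, Lig1 and Pole). With a filter on background, 14 of 17 fell. That filter asked for at least 1 array above background, so genes could enter through day 7 alone. Only 7 genes were above background on all 4 arrays and 10 on some. Of the latter, 6 were above it on both arrays of day 7 and on neither of day 30. The bounds of Mcm3 and Mcm5 were only -0.04 and -0.11. Mki67, the proliferation marker, read 10.78 and 11.04 at day 7 and 5.29 (at background) and 6.60 at day 30, and fell with a bound of -4.58. Ccna2, the cyclin of S phase, fell with a bound of -2.72, Mcm2, of the replicative helicase, with -1.61, and Rrm2, of ribonucleotide reductase, with -0.95. Pcna, the sliding clamp of DNA polymerase, was above background on all arrays and differed by -1.27 (adjusted p = 0.0152); it was chosen after its values were seen. The S-phase count was 10 without PBS at day 7, 14 without Tbx6 at day 7, 9 without PBS at day 30 and 7 without Tbx6 at day 30. The median day difference was -1.27 for S-phase genes, -0.35 for replication-independent histones, -0.19 for mRNA processing and -0.49 for chaperones, beside -1.43 for the replication-dependent members. With readings at background raised to the limit these medians were -0.52, 0.14, -0.04 and -0.23, beside -1.16 for the members. A gene at background on every array then takes 0.15, the difference in background limits between days. The positive sign for replication-independent histones is therefore no measured rise.

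**Figure D4:**
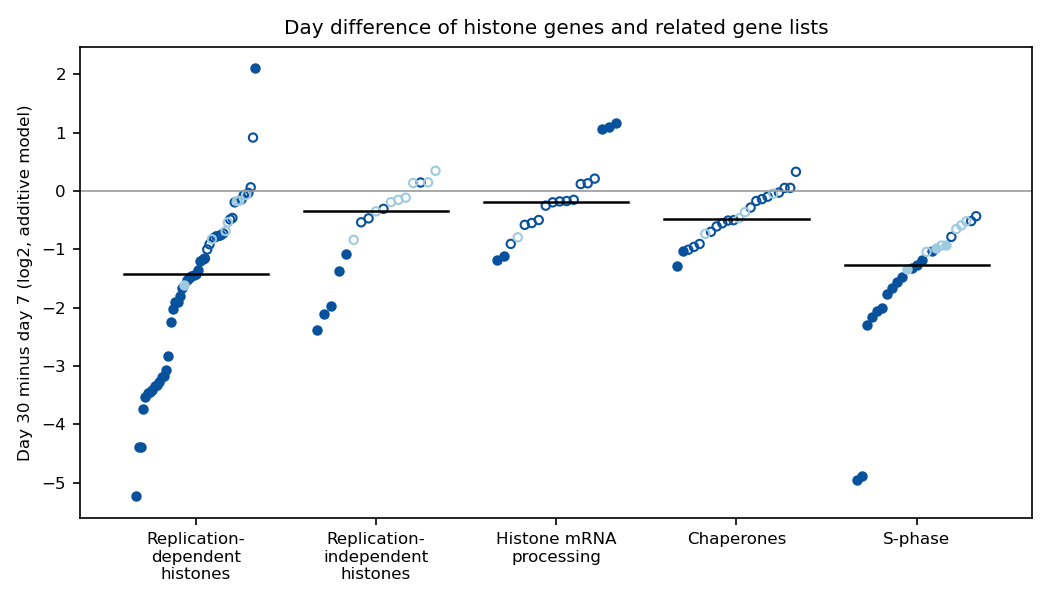
Day 30 minus day 7 (log2, additive model) for each member and for each gene of 4 related lists; filled points passed the test, open ones did not, pale points were at background on all 4 arrays and bars are medians. The members reach from -5.23 for H2ac15 to 2.10 for H2bc4.

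Markers of other cell types moved between days as well, and their part in the histone difference was not tested. Thymocyte markers were at background on every array for 5 of 6 genes, with list means of 3.46 to 3.77. All 4 B and T lymphocyte markers and all 4 testis germ cell markers were at background throughout. Of 4 erythroid markers, Klf1 and Epor were at background throughout, and Slc4a1 (-0.81, adjusted p = 0.157) did not pass the test. Alas2, an enzyme of haem synthesis in red cell precursors, read 12.52 and 10.73 at day 7 and 9.24 and 9.82 at day 30. Alas2 fell by 2.09 (adjusted p = 0.0234), a call lost without PBS at day 7 or either array of day 30 and under a trended, robust prior, and the list mean was 6.58 to 6.96 at day 7 and 5.95 to 6.07 at day 30. Among 3 fibroblast markers Col1a1 fell by 3.57 and Tcf21 fell by 1.72, not both of them called without PBS at day 30. Dcn (-0.08, adjusted p = 0.903) did not pass the test. The list mean was 13.7 to 13.8 at day 7 and 11.8 to 12.1 at day 30. Among 4 endothelial markers Kdr fell by 1.03, a call lost without any one array, and the list mean was 13.4 to 13.5 and then 12.6. Among 4 macrophage markers Csf1r was higher at day 30 by 1.69 and C1qa by at least 1.72, not both of them called without Tbx6 at day 30. Adgre1 (0.29, adjusted p = 0.608) and Fcgr1 (above background on 1 array) did not pass the test, and their days overlapped. The list means were 6.19 to 6.75 at day 7 and 7.28 to 7.88 at day 30. All 3 fat markers (Ucp1, Adipoq and Cidec) read lower after Tbx6 at day 7, with a median difference of -1.91, and higher after Tbx6 at day 30, with a median of 2.33. None of them passed the test for day. Ucp1 read 11.92 and 7.60 at day 7 and 5.69 (at background) and 8.34 at day 30, Adipoq 7.98 and 6.08 and then 7.49 and 9.83, and Cidec 7.10 and 6.13 and then 5.85 (at background) and 7.88. Macrophage markers had median differences between injections of -0.51 at day 7 and 0.57 at day 30. Their part in the histone differences between injections was not tested.

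Along the chromosomes the members formed 5 runs of neighbouring histone genes, 1 on chromosome 3 and 4 on chromosome 13, in the order of the RefSeq table (GRCm38.p6). Falls were called in 5 of 8 members of the run on chromosome 3, in 9 of 15 from H2bc13 to H2ac24, in 4 of 5 from H2ac12 to H2bc11 and in 12 of 23 from H4c8 to H1f1. Neither H2bc1 nor H2ac1, which stand alone at the end, was called. H2bc4, which rose, lay between H2ac6 (-0.46) and H4c3 (-0.03), and neither neighbour passed the test. H2bc21, the other member with higher readings at day 30, lay beside H2ac20, which fell.

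Head-to-head neighbours were also compared, because an H2A and an H2B gene of such a pair share 1 stretch of upstream sequence. Pairs were sought only among genes with a promoter window, so H2bc4 and H2bc21, both higher at day 30, could not enter. In 5 of 5 pairs found in which both genes were above background on at least 1 array, the H2A gene had the lower day difference. The differences were -5.23 and -1.90 for H2ac15 and H2bc15, -3.07 and -1.43 for H2ac11 and H2bc11, -2.83 and -1.52 for H2ac13 and H2bc13, and -3.19 and -2.25 for H2ac12 and H2bc12, all past the test. In H2ac22 and H2bc22 the differences were -3.74 and -0.78, of which the former passed the test. H2bc8 and H2bc1, the partners of H2ac8 and H2ac1, were at background on all arrays. Of these H2B genes, H2bc11, H2bc12, H2bc13 and H2bc22 had readings at background at day 30, and the bound of H2bc22 was -0.48.

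**Figure D5:**
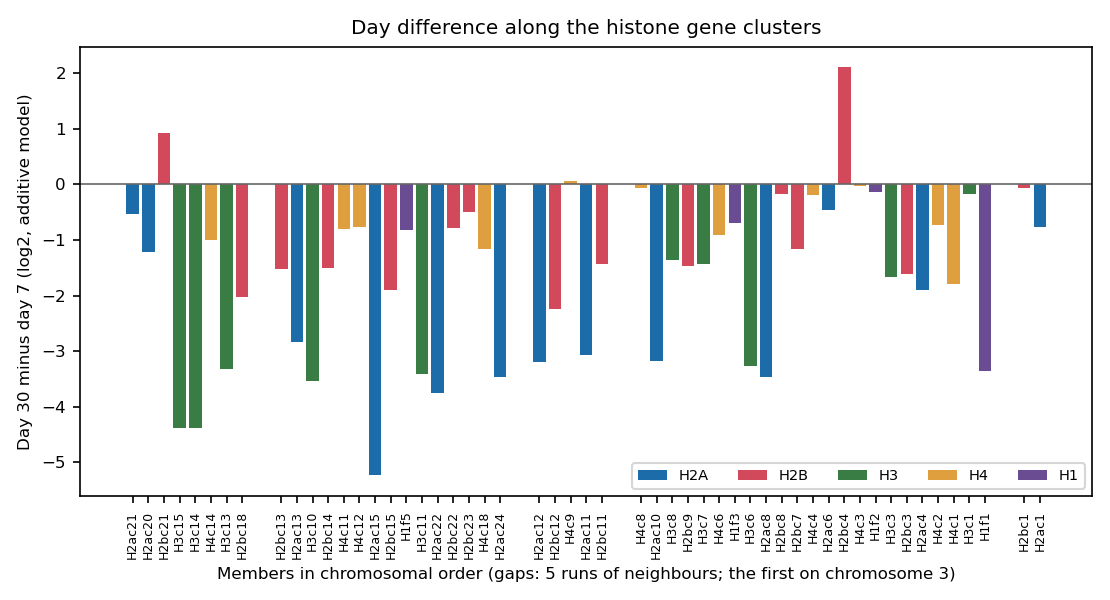
Day 30 minus day 7 (log2, additive model) for each member in chromosomal order, coloured by class, with gaps between the 5 runs; positions show order and not distance. The deepest bar is H3c14 and H3c15 in the run on chromosome 3, H2ac15 from H2bc13 to H2ac24, H2ac12 in the run ending at H2bc11 and H2ac8 from H4c8 to H1f1, while H2bc4 and H2bc21 point upward.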

How the data were processed

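The deposited table holds 28846 probe sets on 4 arrays. The authors made its log2 values with Affymetrix Expression Console 1.4, per the submitters' processing notes, and SST-RMA, per the deposited series description, from 100 ng of total RNA labelled with a whole-transcript kit. Base 2 is taken from their range and the usual output of RMA. The files hold no read depth, and the number of arrays limits the precision.

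Names came from the platform annotation (19572 probe sets with 1 symbol, 0 with several, 2570 transcript probe sets unnamed). All 19572 Entrez identifiers had the same symbol in RefSeq (GRCm38.p6). Values were used as deposited. limma 3.58.1 (R 4.3.3; lmFit and eBayes, two-sided) fitted day and injection as additive terms to every named probe set without a filter, so that each member was tested, with Benjamini-Hochberg adjustment over 19572. It leaves 1 residual degree of freedom, and standard errors (SE) borrow variance from other genes (prior degrees of freedom 7.73). An exact permutation test of 2 arrays against 2 cannot go below a two-sided p of 0.333. Differences between single arrays have no p-value and use a size rule of 1.5-fold. A bound ("at least") has readings at background raised to that array's limit. Tables and plots used Python 3.11.15, pandas 2.3.3 and matplotlib 3.10.9.

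Named were all H1 genes and, in each other class, the 3 members with the highest mean, the 3 with the largest and the 2 with the smallest day difference; in the other lists the 4 with the largest called day difference, those in counts of 5 or fewer, H2ax, Slbp, Npat and Mki67. Others were chosen after their values were seen. Members and lists were chosen with earlier results of these data known. With 1 array a group, the residual spread of the additive model is how far the injection difference at day 7 departs from that at day 30. To this it adds variance borrowed from other genes. The p-values therefore measure no spread between animals of the same group. Near-identical copies can hybridise to the same probes, so single copies are uncertain. Alternatives were other normalisations, filters, variance models and left-out arrays; 1 probe set per distinct protein sequence was not run because no protein sequences were used.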

Additional observations from a re-analysis of the deposited data

How the results depend on the processing

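All 31 members called for day kept direction and call under every one of the following alternatives that tested them (quantile normalisation, median centring, filters on mean level or background, 1 probe set per gene, no injection term, and a trended, robust prior), with 31 to 33 members called. The count was 30 with H3c14 and H3c15 counted once, and 29 where both readings of the higher day had to be above background, both chosen after seeing the data. The latter rule admits a member through the day on which it was high, so its count is a description and no support. Leaving out each array in turn, also chosen after seeing the data, with day as the only term and the lone array of a day assumed to vary like the others, gave 23 to 32 calls and medians of -1.54 to -1.17. With every one of the 4 arrays left out in turn, 21 of the 31 stayed called. Signs turned for members that were not called: with arrays left out the differences were -0.26 to 0.20 for H4c3, -0.29 to 0.41 for H4c9, -1.17 to 0.78 for H4c4, -0.33 to 0.19 for H4c8, -0.54 to 0.40 for H2bc1 and -0.49 to 0.20 for H1f2, and H4c3 was 0.0062 with median centring. Between injections, 12 members at day 7 and 10 at day 30 were at least 1.5-fold apart. Under a 2-fold rule these counts were 5 and 0. Under the 1.5-fold rule with readings raised to background, the count at day 30 was 5. No injection call was made under any alternative. No paired analysis was possible because each group has 1 array. The alternative with 1 probe set per distinct protein sequence was not run.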
